A study of Homo sapiens with 9 samples.

Results

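The 407 genes described here were expressed at a higher or lower level in MCF10A cells under both of the treatments used in the series. Members were chosen by their measured levels. A gene was included where all 6 treated samples lay on the same side of all 3 control samples and the mean log2(TPM + 1) differed from control by at least 1 in each treatment. TPM, a length-normalised abundance that sums to 1000000 in each library, was the unit, and the 1 added before taking logarithms damps the differences of weakly expressed genes. Of 56572 gene symbols outside the mitochondrial genome, 281 were higher and 126 were lower by this rule. Without the minimum size, the 6 treated values lay above the 3 control values for 2660 symbols and below them for 2977. The rule is itself a statement about high calcium against control and TGFb3 against control, so the members' differences from control are given below as descriptions and carry no test. Both differences were taken from the same 3 control samples.

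MCF10A is an established, non-tumorigenic line of human breast epithelium that grows in the presence of added growth factors. Cells of all 9 samples were kept in DMEM/F12 medium with insulin, EGF, hydrocortisone, cholera toxin and 5% horse serum. The control group of 3 samples was untreated. The high calcium group of 3 samples received 10 mM calcium for 16 h along with ionomycin, an ionophore that carries calcium across membranes, at a dose that the labels give as 1 mM and whose unit could not be checked. The TGFb3 group of 3 samples was given 10 nM transforming growth factor beta 3 for 16 h. No group had calcium or ionomycin alone, so the effects of the pair cannot be told apart. The series title places the work in the early involution of the mammary gland after milk stasis and in cell death that depends on lysosomes. The labels number 3 replicates per group without saying that they were separate cultures, so the p-values below rest on a spread among samples that could be technical.

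TGFb3 is a secreted ligand that binds a pair of receptor kinases, which phosphorylate SMAD2 and SMAD3. The SMAD proteins then enter the nucleus and act with other factors, among them AP-1, on genes for matrix, integrins, proteases and cell cycle inhibitors. In epithelial cells this pathway is known for growth arrest and for a shift towards a migratory, matrix-producing state. Calcium acts through calmodulin, calcineurin and protein kinase C, and in keratinocytes a rise in calcium starts terminal differentiation with formation of the cornified envelope. Ionomycin also drains calcium from the endoplasmic reticulum, where calcium-dependent chaperones fold secreted proteins. The values below show only RNA levels after 16 h.

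Mitochondrially encoded RNA took 22.7 ± 0.91% of TPM (SD, n = 3) in control, 11.5 ± 0.37% in high calcium and 22.7 ± 0.59% in TGFb3, and it was taken out before the remaining values were rescaled to 1000000. MALAT1, a nuclear noncoding RNA read as a sign of RNA quality, stood at 204 ± 55.2, 479 ± 37.5 and 265 ± 18.0 TPM in the same order. The median difference of all 14373 tested genes between high calcium and TGFb3 was 0.09 on this scale and 0.27 in the values as deposited, so the deposited scale was run beside the main one. Markers of mammary basal epithelium were abundant, with a summed level of 3691 to 4030 TPM over 8 genes in control, 6859 to 7177 in high calcium and 5990 to 6895 in TGFb3. The 8 fibroblast markers summed to 3.39 to 4.49, 11.2 to 14.3 and 36.9 to 41.2 TPM, with COL1A2 and THY1 at 0 in every sample. The 8 immune markers summed to 26.1 to 31.4, 64.1 to 88.3 and 25.8 to 30.1 TPM, with PTPRC, CD3E and HLA-DRA among those at 0 in every sample. The 7 endothelial markers summed to 5.92 to 7.16, 13.1 to 14.3 and 2.15 to 3.27 TPM, with CDH5, CLDN5 and ERG at 0. The 8 luminal markers summed to 701 to 858, 1249 to 1305 and 713 to 769 TPM. The part of these differences in the results below was not tested.

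The 281 higher genes were mostly weakly expressed in untreated cells. Their median control level was 3.00 TPM, against 18.6 TPM for all tested genes, and 74 of them lay under 1 TPM in control. Their summed level was 4260 to 4420 TPM in the control samples, 14724 to 14813 TPM in high calcium and 16278 to 17348 TPM in TGFb3. The median difference from control was 1.51 in high calcium, with a range of 1.00 to 4.69, and 1.55 in TGFb3, with a range of 1.00 to 5.01. In 26 of them the difference reached 2 in both treatments. The 126 lower genes came from more abundant RNAs, with a median control level of 36.8 TPM and 31 genes at 100 TPM or above. They summed to 16965 to 17370 TPM in control, 5920 to 6116 TPM in high calcium and 7276 to 7328 TPM in TGFb3. Their median difference was -1.42 in high calcium and -1.21 in TGFb3, and 2 of them, HYPK and METTL7A, differed by at least 2 in both. Across all tested genes, limma called 58.7% at an adjusted p under 0.05 for high calcium against control and 58.5% for TGFb3 against control. Nothing is read from the members' counts in these comparisons, since the rule used them.

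**Figure D1:**
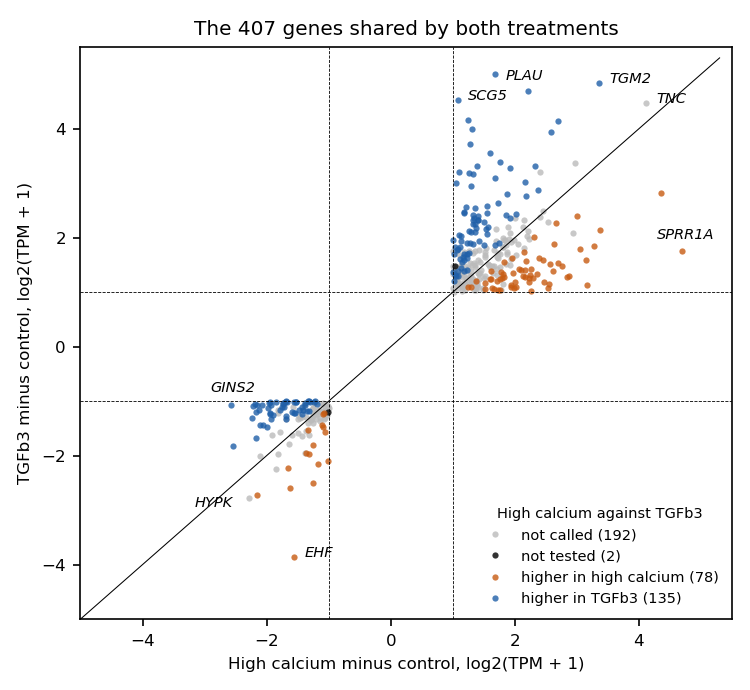
Each point is 1 of the 407 genes, placed by its difference from control in high calcium (x axis) and in TGFb3 (y axis), both in log2(TPM + 1); dashed lines mark the minimum size of 1, the solid line marks equal differences, and colour gives the direct comparison of the treatments. Higher genes reach 4.69 on the x axis (SPRR1A) and 5.01 on the y axis (PLAU), and TNC lies close to the line of equal differences.

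Of the 281 higher genes, 236 were annotated as protein coding, which is 84.0%, and 108 of the 125 annotated lower genes were, which is 86.4%, beside 82.2% of all tested genes. The higher genes also held 19 long intergenic and 11 antisense RNAs, and the lower genes held 7 small nucleolar RNA entries. The strandedness of the libraries is not given in the sources used here, so reads of overlapping or antisense genes cannot be assigned with certainty.

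The 12 leading higher genes by the smaller of the differences were TNC, TGM2, HMOX1, SPRR2D, LBH, SPINK6, IL32, SUN3, CRYAB, IGFBP3, GSN and KDELR3. TNC codes for tenascin-C, a matrix glycoprotein made at sites of tissue remodelling. It was read at 1.01, 0.972 and 1.45 TPM in the control samples, at 39.9, 36.3 and 32.6 TPM in high calcium and at 54.2, 50.1 and 37.4 TPM in TGFb3. Every treated sample was more than an order of magnitude above every control sample, and the treatments overlapped each other. The difference from control was 4.12 in high calcium and 4.48 in TGFb3. TGM2, transglutaminase 2, cross-links matrix and cellular proteins in a calcium-dependent reaction. It stood at 9.14, 10.4 and 9.72 TPM in control, 113, 106 and 107 TPM in high calcium and 322, 302 and 290 TPM in TGFb3, so the 3 groups did not overlap. HMOX1, the haem-degrading enzyme of the oxidative stress response, was at 1.62, 0.256 and 0.41 TPM in control, 12.6, 12.9 and 11 TPM in high calcium and 18.1, 16.3 and 14.6 TPM in TGFb3. Its list, of NRF2 and aldo-keto reductase genes, held 1 other member, ABCC2, which was lower. Of the 24 tested non-members, 19 were called higher and 1 lower in high calcium, beside 32.3% and 26.4% of all tested genes. In TGFb3 5 were called higher and 17 lower, beside 26.1% and 32.5%. LBH, a transcriptional cofactor known in mammary basal cells, was listed at 0 in all 3 control samples, at 4.88, 5.45 and 6.07 TPM in high calcium and at 17.1, 17.6 and 15.6 TPM in TGFb3. It was 1 of 7 higher genes at 0 in every control, for which no fold is given.

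Other leading genes differed in how the treatments compared. IL32, a proinflammatory cytokine, was at 12.3, 14 and 13.7 TPM in control, 78.6, 83.4 and 69.7 TPM in high calcium and 95.5, 75.1 and 68.5 TPM in TGFb3. Its treated groups overlapped fully and stood apart from control. CRYAB, a small heat shock protein, was at 1.5 ± 0.47 TPM in control, 18.8 ± 1.15 TPM in high calcium and 12.1 ± 2.63 TPM in TGFb3. GSN, the actin-severing protein gelsolin, which calcium activates, was at 5.24 ± 1.79, 33.9 ± 0.514 and 28.6 ± 3.95 TPM in the same order. KDELR3 codes for a receptor that returns chaperones to the endoplasmic reticulum and was at 8.95 ± 1.23, 61.5 ± 5.68 and 47.0 ± 5.02 TPM. The protease inhibitor gene SPINK6 was at 0.49 ± 0.477, 7.64 ± 0.717 and 21.4 ± 5.63 TPM. SUN3, of a family that links the nucleus to the cytoskeleton, was at 1.39 ± 1.43, 10.1 ± 1.06 and 18.2 ± 1.65 TPM.

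**Figure D2:**
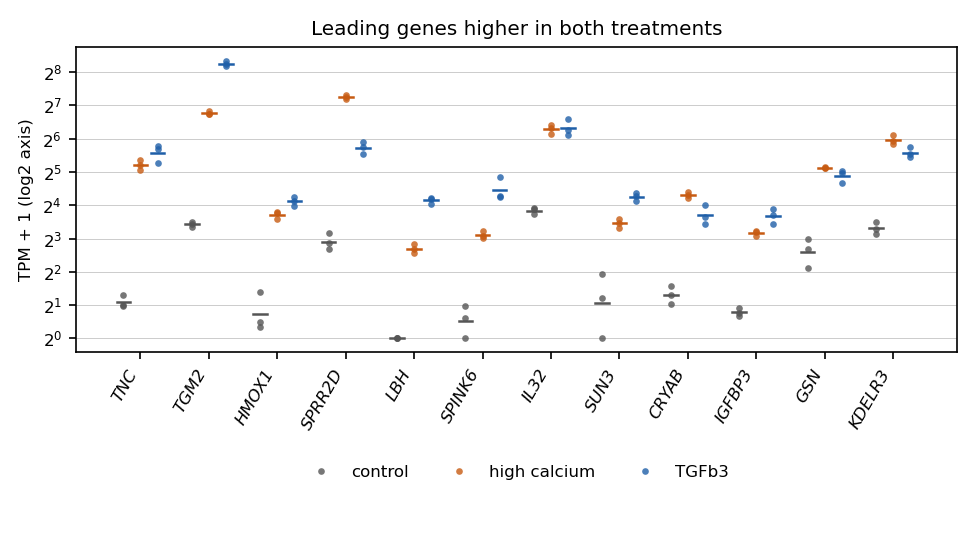
Level of the 12 leading higher genes in each sample, as TPM + 1 on a log2 axis; points are samples (3 per group) and bars are the group means on the log scale. For each gene all 6 treated points lie above the 3 control points, and SPRR2D is the gene whose high calcium samples, at 146 to 158 TPM, lie farthest above its TGFb3 samples, at 45.1 to 58.6 TPM.

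Matrix genes common to the treatments included parts of the anchorage of epithelium to its basement membrane. Of 27 tested genes of the extracellular matrix list, 15 were called higher and 6 lower in high calcium, where 32.3% and 26.4% of all tested genes were, and 21 were called higher and 2 lower in TGFb3, where 26.1% and 32.5% were. The list's median difference was 0.42 in high calcium and 1.46 in TGFb3, beside 0.05 and -0.06 for all tested genes. Its 7 members of the shared set were TNC, LAMA3, LAMB3, COL7A1, COL16A1, COL6A1 and DCN. The rule fixed the direction of these 7, which are in the counts and medians above. Of the other 20 tested genes, 8 were called higher and 6 lower in high calcium, and 14 and 2 in TGFb3. LAMA3 and LAMB3 code for the alpha and beta chains of laminin-332, which the basement membrane uses to hold epithelial cells. LAMA3 was at 228, 238 and 238 TPM in control, 814, 816 and 776 TPM in high calcium and 2405, 2593 and 2373 TPM in TGFb3. LAMB3 was at 68.8, 74.8 and 82.3 TPM in control, 292, 299 and 275 TPM in high calcium and 767, 758 and 691 TPM in TGFb3. Neither gene's 3 groups overlapped, and each was lower in high calcium than in TGFb3, by 1.61 ± 0.04 (SE, adjusted p = 1.7e-09) for LAMA3 and 1.35 ± 0.07 (adjusted p = 1.2e-07) for LAMB3 in the limma fit. COL7A1, whose product forms the anchoring fibrils under laminin-332, was at 3.43 ± 0.669 TPM in control, 10.5 ± 0.191 TPM in high calcium and 43.0 ± 0.344 TPM in TGFb3. The difference between the treatments was -1.94 ± 0.10 (adjusted p = 1.7e-07). COL6A1 was at 1.2 ± 0.17, 4.15 ± 0.333 and 3.87 ± 0.287 TPM, and the treatments were not told apart (adjusted p = 0.62). DCN, the proteoglycan decorin and also a fibroblast marker, was at 3.00 ± 0.617, 8.91 ± 0.392 and 18.0 ± 1.98 TPM.

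ITGB6 was the integrin gene of the set. It codes for the beta 6 subunit, an epithelial integrin that can release TGF-beta from its latent form. It was read at 28.8, 28.2 and 30 TPM in control, 74.9, 72.8 and 73.0 TPM in high calcium and 450, 469 and 510 TPM in TGFb3. The 3 groups were far apart, with a difference of -2.68 ± 0.05 between high calcium and TGFb3 (adjusted p = 2.1e-10). Of 34 tested genes on the TGF-beta target list, 32 were called higher and 1 lower in TGFb3, and 15 were called higher and 10 lower in high calcium. The same directions were called in 26.1% and 32.5% of all tested genes in TGFb3 and 32.3% and 26.4% in high calcium. The members of the shared set on that list were 5, namely TNC, ITGB6, CTGF, IGFBP3 and PTHLH. The rule fixed their direction. Of the other 29 tested genes, 27 were called higher and 1 lower in TGFb3, and 10 and 10 in high calcium. CTGF, a matricellular protein, was at 6.4, 7.04 and 8.41 TPM in control, 15.9, 17.3 and 15.4 TPM in high calcium and 62.8, 67.2 and 65.6 TPM in TGFb3. Its high calcium difference of 1.06 lay near the limit of the rule, and CTGF was not in the set without the first control sample. IGFBP3, which binds insulin-like growth factors, was at 0.727 ± 0.136, 7.99 ± 0.471 and 11.8 ± 1.96 TPM. PTHLH, the parathyroid hormone-related peptide that governs calcium transport in the breast, was at 1.16 ± 0.458, 7.19 ± 1.35 and 7.24 ± 2.11 TPM, and its treatments differed by 0.01 ± 0.22 (adjusted p = 0.97).

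Ligands of the TGF-beta superfamily and their inhibitors were also in the set. INHBA, the subunit of activin A, was at 10.9, 11.7 and 10.9 TPM in control, 23.9, 24.9 and 23.4 TPM in high calcium and 41.3, 44.7 and 41.0 TPM in TGFb3. BMP2, a bone morphogenetic protein, was at 9.18 ± 0.839, 20.6 ± 0.963 and 25.7 ± 3.12 TPM. The groups of INHBA did not overlap, and those of BMP2 did not overlap either. BMP2 was called higher in TGFb3 than in high calcium (-0.30, adjusted p = 0.021), but not on the deposited scale (-0.11, adjusted p = 0.30). FST and FSTL3, secreted proteins that bind and block activin, were named after their values were seen. FST was at 10.7 ± 1.03, 27.5 ± 2.58 and 90.0 ± 14.6 TPM, and FSTL3 at 37.4 ± 3.67, 101 ± 1.7 and 202 ± 18.4 TPM. TGFBR3, the co-receptor betaglycan, was the lower gene of this family, at 8.89, 9.01 and 8.86 TPM in control, 4.31, 2.2 and 2.72 TPM in high calcium and 1.27, 1.42 and 1.98 TPM in TGFb3. WNT9A, a Wnt ligand, was at 1.66 ± 0.534, 5.56 ± 0.419 and 22.7 ± 2.16 TPM. None of the 24 tested ligands, receptors and SMAD genes other than INHBA and TGFBR3 met the rule, and of the 14 tested ID and BMP pathway genes only BMP2 did. Of the other 22 ligands, receptors and SMAD genes, 8 were called higher and 6 lower in high calcium, and 15 and 1 in TGFb3. Of the other 13 ID and BMP pathway genes, 2 were called higher and 6 lower in high calcium, and 4 and 4 in TGFb3. The shares of all tested genes were 32.3%, 26.4%, 26.1% and 32.5% in that order.

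Genes of the urokinase system, which activates plasmin at the cell surface, were shared as well. PLAU codes for urokinase and PLAUR for its receptor. PLAU was at 16.3, 16.2 and 17.1 TPM in control, 54.2, 56.6 and 55.3 TPM in high calcium and 601, 600 and 499 TPM in TGFb3. The TGFb3 level was about an order of magnitude above that of high calcium, with a difference of -3.33 ± 0.07 (adjusted p = 3.6e-10). PLAUR was at 46.8, 47.3 and 48.9 TPM in control, 111, 108 and 100.1 TPM in high calcium and 212, 203 and 147 TPM in TGFb3, again without overlap. SERPINE2, an inhibitor of urokinase and thrombin, was at 18.0 ± 1.02, 54.9 ± 0.505 and 104 ± 3.7 TPM. MMP14, a membrane-bound matrix protease, was at 60.5 ± 2.51, 138 ± 4.21 and 159 ± 8.25 TPM. All 4 protease genes of the set were called higher in TGFb3 than in high calcium, a direction called in 24.1% of all tested genes. On the deposited scale MMP14 was not called (-0.01, adjusted p = 0.91).

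Cornified envelope genes of the small proline-rich family lay together on chromosome 1. The genes SPRR1A, SPRR1B, SPRR2D and SPRR2E, all higher, occupied 152985231 to 153106184 of chromosome 1 in hg38. Their products are cross-linked by transglutaminases into the envelope of differentiating keratinocytes. SPRR1A was at 7.28, 7.52 and 9.43 TPM in control, 208, 248 and 244 TPM in high calcium and 42.1, 22.0 and 27.4 TPM in TGFb3. SPRR2D was at 5.43, 6.22 and 8.02 TPM, 158, 146 and 153 TPM, and 58.6, 53.3 and 45.1 TPM. For these genes the high calcium samples were the highest, with a difference between the treatments of 2.94 ± 0.20 (adjusted p = 8.0e-07) for SPRR1A and 1.53 ± 0.12 (adjusted p = 3.4e-06) for SPRR2D. SPRR1B, the most abundant of the 4 in control, was at 93.1 ± 17, 187 ± 8.26 and 241 ± 29.4 TPM. It was in the opposite order, by -0.36 ± 0.13 (adjusted p = 0.031), although on the deposited scale that difference was not called (adjusted p = 0.25). The SPRR genes are similar in sequence, so reads could have been shared among them. Of 24 tested genes on the cornified envelope list, 17 were called higher and 3 lower in high calcium, beside 32.3% and 26.4% of all tested genes. In TGFb3 12 were called higher and 5 lower, beside 26.1% and 32.5%, and 5 higher and 2 lower genes met the rule, which fixed their direction. Of the other 17 tested genes, 12 were called higher and 1 lower in high calcium, and 7 and 3 in TGFb3.

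Keratins were found among the higher and the lower genes. KRT16, a keratin of activated and wounded epidermis, was at 23.3, 21.0 and 25.2 TPM in control, 79.1, 74.4 and 81.2 TPM in high calcium and 76.2, 64.4 and 53 TPM in TGFb3. KRT13, a keratin of mucosal epithelium in the same gene cluster on chromosome 17, was at 62.4, 52.5 and 67.3 TPM, 11.9, 11.3 and 15.1 TPM, and 19.0, 17.4 and 18.0 TPM. The treated samples of KRT16 were all above control and those of KRT13 were all below. KRT14, a basal keratin between them, had wide values of 12.8, 2.89 and 13.8 TPM in control, 32.3, 17.9 and 32.4 TPM in high calcium and 34.2, 26.7 and 17.4 TPM in TGFb3, and it was not in the set without the second control sample. KRT4 was at 2.85 ± 0.926 TPM in control and was listed at 0 in all 3 high calcium samples and in 2 of 3 TGFb3 samples. PI3, the protease inhibitor elafin and itself a transglutaminase substrate, was named after its values were seen. It was at 1623, 1469 and 1635 TPM in control, 414, 391 and 421 TPM in high calcium and 844, 821 and 682 TPM in TGFb3, and it left the set under the median ratio scaling. CLDN4, a tight junction claudin, was at 6.32 ± 1.35, 17.1 ± 0.388 and 38.1 ± 6.96 TPM. It was the only gene of 26 tested junction genes to meet the rule. Of the other 25, 15 were called higher and 5 lower in high calcium, and 11 and 6 in TGFb3 (all tested genes 32.3%, 26.4%, 26.1% and 32.5% in that order).

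JUN and KLF4 were the transcription factors of the immediate early and AP-1 list in the set. Of its other 17 tested genes, 10 were called higher and 6 lower in high calcium, and 11 and 4 in TGFb3 (all tested genes 32.3%, 26.4%, 26.1% and 32.5% in that order). JUN, a subunit of AP-1, was at 7.79, 7.53 and 8.3 TPM in control, 39.2, 39.0 and 40.0 TPM in high calcium and 60.5, 60.4 and 57.4 TPM in TGFb3. KLF4, a factor of epithelial differentiation, was at 7.36, 6.03 and 7.71 TPM in control, 25.1, 24.9 and 25.4 TPM in high calcium and 24.8, 25.8 and 21.6 TPM in TGFb3. JUN was higher in TGFb3 by 0.58 ± 0.06 (adjusted p = 1.1e-05), and KLF4 was not told apart (adjusted p = 0.60) except on the deposited scale, where it was higher in high calcium (0.25, adjusted p = 0.032). Because JUN was shared, the AP-1 motif TGAGTCA was among the motifs searched for on both strands in promoters of members. RefSeq promoters of 300 bases, from 250 before to 50 after the start of a gene in GRCh38.p14, matched 191 of the 281 higher genes and 88 of the 126 lower genes. Under 80% of each group had a promoter, so a comparison of shares between groups is void, and the counts are descriptions. The motif was present in 19 of 191 higher promoters (9.95%), in 1 of 88 lower promoters (1.14%) and in 4.92% of all 27305 promoters or 3.29% of those of tested genes. In 3 higher genes described here, the 250 bases before the start read as follows, 5′ to 3′ on the gene's strand, with matches to the motif or its reverse complement in capitals.

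LAMA3, chr18:23872770-23873019, plus strand: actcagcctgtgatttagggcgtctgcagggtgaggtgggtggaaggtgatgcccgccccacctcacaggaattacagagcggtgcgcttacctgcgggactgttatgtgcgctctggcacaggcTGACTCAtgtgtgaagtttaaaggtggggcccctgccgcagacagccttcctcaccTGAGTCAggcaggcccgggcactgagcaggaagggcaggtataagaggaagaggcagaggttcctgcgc
SPRR1A, chr1:152983831-152984080, plus strand: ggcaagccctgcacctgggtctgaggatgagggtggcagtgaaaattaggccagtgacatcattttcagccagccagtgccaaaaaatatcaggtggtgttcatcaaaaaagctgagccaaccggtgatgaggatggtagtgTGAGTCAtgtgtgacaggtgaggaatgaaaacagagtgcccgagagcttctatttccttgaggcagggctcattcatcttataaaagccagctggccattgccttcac
PLAUR, chr19:43670170-43670419, minus strand: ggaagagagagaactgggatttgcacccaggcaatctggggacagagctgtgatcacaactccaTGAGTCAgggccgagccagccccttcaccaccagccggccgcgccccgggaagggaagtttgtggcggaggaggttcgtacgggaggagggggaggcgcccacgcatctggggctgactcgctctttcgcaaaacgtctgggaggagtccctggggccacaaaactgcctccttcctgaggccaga

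The LAMA3 window held 2 matches in opposite orientations and lay inside the annotated span of the gene (chromosome 18, 23689443 to 23956222), at the start of a shorter transcript. The SPRR1A and PLAUR windows held 1 match each, and the SPRR1A window lies upstream of a GENCODE entry that spans only 152985231 to 152985500. A match of letters does not show that AP-1 was bound there.

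The chemokine and cytokine genes CXCL8, CCL20, IL32, PTGS2 and IL6 of the NF-kappaB list were shared. Of the 5, CXCL8 and CCL20 were called higher in high calcium than in TGFb3, a direction called in 35.5% of all tested genes. Of 29 tested genes on this list, 24 were called higher and 1 lower in high calcium, beside 32.3% and 26.4% of all tested genes, with a list median of 1.14. In TGFb3 15 were called higher and 9 lower, beside 26.1% and 32.5%, with a list median of 0.48. These counts include the 5 members, whose direction the rule fixed. Of the other 24 tested genes, 19 were called higher and 1 lower in high calcium, and 10 and 9 in TGFb3. CXCL8, which attracts neutrophils, was at 46.9, 53.4 and 49.1 TPM in control, 485, 484 and 509 TPM in high calcium and 189, 197 and 161 TPM in TGFb3. CCL20, which attracts cells bearing CCR6, was at 132, 132 and 125 TPM, 1166, 1117 and 1220 TPM, and 284, 329 and 245 TPM. Both were highest in high calcium without overlap, by 1.43 ± 0.07 (adjusted p = 1.4e-07) for CXCL8 and 2.03 ± 0.09 (adjusted p = 4.1e-08) for CCL20. PTGS2, the inducible cyclooxygenase, was at 2.05 ± 0.203, 7.79 ± 0.745 and 8.58 ± 1.51 TPM. IL6 was low throughout, at 0.746 ± 0.41, 2.65 ± 1.09 and 3.15 ± 0.735 TPM, and dropped out of the set without the third control or the first high calcium sample. Of the interferon-stimulated genes, IRF9, ISG20 and IFI27 met the rule, at 15.3 ± 3.14, 5.65 ± 1.42 and 6.44 ± 2.78 TPM in high calcium and 17.4 ± 3.27, 5.39 ± 0.849 and 6.16 ± 1.44 TPM in TGFb3. Their control levels were 6.17 ± 0.993, 1.71 ± 0.524 and 2.49 ± 1.24 TPM. Of the 21 tested genes on that list, 12 were called higher and 2 lower in high calcium, beside 32.3% and 26.4% of all tested genes. In TGFb3 7 were called higher and 7 lower, beside 26.1% and 32.5%. The list medians were 0.75 and -0.07. The rule fixed the direction of the 3 members. Of the other 18, 9 were called higher and 2 lower in high calcium, and 4 and 7 in TGFb3.

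Genes of stress, lysosomes and calcium entry contributed few members. All 22 tested genes of the unfolded protein response were called higher in high calcium and 17 of 22 in TGFb3, beside 32.3% and 26.1% of all tested genes, and none met the rule. The list's median difference was 1.76 in high calcium and 0.43 in TGFb3. Several genes of the secretory route outside that list did meet it and were named after their values were seen. SEC24D, a coat protein of vesicles leaving the endoplasmic reticulum, was at 15.6 ± 0.392, 106 ± 2.21 and 47.0 ± 3.35 TPM, and NUCB2, a calcium-binding protein of the Golgi, at 35.5 ± 2.96, 209 ± 7.96 and 75.7 ± 3.59 TPM. WIPI1, which acts in autophagosome formation, was at 14.3 ± 0.571, 89.9 ± 2.77 and 42.9 ± 2.09 TPM. Each of these was called higher in high calcium than in TGFb3, a direction called in 35.5% of all tested genes. SMPD1, the acid sphingomyelinase, was the only member among 32 tested lysosomal genes, at 4.04 ± 0.116, 14.5 ± 0.271 and 10.9 ± 1.14 TPM. Of the other 31, 19 were called higher and 4 lower in high calcium, and 16 higher and 7 lower in TGFb3 (all tested genes 32.3%, 26.4%, 26.1% and 32.5% in that order). ORAI3, a subunit of store-operated calcium channels, was at 1.08, 2.78 and 4.74 TPM in control, 20.2, 21.1 and 18.6 TPM in high calcium and 5.4, 6.3 and 9.46 TPM in TGFb3. Its relative ORAI2 was at 0.818, 1.76 and 1.7 TPM, 3.11, 5.76 and 2.94 TPM, and 5.09, 9.65 and 3.48 TPM. The spread within groups was wide for both genes, and each left the set when a single library was dropped (the first control for either, the second high calcium sample for ORAI2 and the third TGFb3 sample for ORAI3). NUPR1, a stress-induced nuclear protein, was the member from 24 genes of the integrated stress response, at 10.7 ± 1.56, 40.5 ± 1.61 and 27.4 ± 4.36 TPM. Of the other 23, 20 were called higher and 1 lower in high calcium, beside 32.3% and 26.4% of all tested genes. In TGFb3 6 were called higher and 14 lower, beside 26.1% and 32.5%. The medians over all 24 were 0.95 and -0.30.

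CDKN1A and MXD1, which act against proliferation, were higher in every treated sample, a direction that the rule fixed. They were the members from the list of G1 cyclins, CDK inhibitors and MYC. Of its other 15 tested genes, 3 were called higher and 8 lower in high calcium, and 5 and 6 in TGFb3. Of the 25 tested non-members of the p53 and cell death list, 14 were called higher and 7 lower in high calcium, and 7 and 11 in TGFb3. The shares of all tested genes were 32.3%, 26.4%, 26.1% and 32.5% in that order. CDKN1A codes for the cyclin-dependent kinase inhibitor p21, a target of both p53 and TGF-beta signalling. It was at 42.4, 40.6 and 46.8 TPM in control, 122, 119 and 116 TPM in high calcium and 139, 132 and 117 TPM in TGFb3. The treated groups overlapped, and their difference was not called (-0.12 ± 0.07, adjusted p = 0.17). On the deposited scale the sign turned to 0.07 (adjusted p = 0.37), and under median ratio scaling CDKN1A was called higher in TGFb3 (-0.22, adjusted p = 0.017). MXD1, an antagonist of MYC, was at 16.7, 17.2 and 18.8 TPM, 41.0, 39.8 and 38.7 TPM, and 74.0, 78.5 and 72.6 TPM, so its 3 groups stood apart. Among the remaining higher genes with a listed role, VEGFA, the angiogenic growth factor, was at 45.2 ± 3.19, 102 ± 8.52 and 143 ± 6.89 TPM. NDRG1, induced by hypoxia and differentiation, was at 55.2 ± 2.69, 188 ± 6.0 and 211 ± 16 TPM. VEGFA and NDRG1 were the members from the glycolysis and hypoxia list. Of its other 24 tested genes, 9 were called higher and 7 lower in high calcium, beside 32.3% and 26.4% of all tested genes. In TGFb3 5 were called higher and 13 lower, beside 26.1% and 32.5%. NT5E, the ectoenzyme CD73, was at 127 ± 7.74, 375 ± 5.39 and 538 ± 30.1 TPM. Levels in TPM are per transcript length, and LAMA3 and NT5E were 2 of the 5 higher genes with at least 100 TPM in control.

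DNA replication genes made up the largest group of lower genes with a listed role. Of 32 tested genes of the S phase and replication list 16 met the rule, which fixes their direction. Of the other 16 on the list, 16 were called lower in high calcium and 14 in TGFb3, beside 26.4% and 32.5% of all tested genes. The median difference over all 32 was -1.85 in high calcium and -1.04 in TGFb3. The minichromosome maintenance genes MCM2, MCM3, MCM4, MCM6 and MCM7, which code for subunits of the helicase that opens replication origins, were 5 of the 16. MCM2 was at 47.9, 50.9 and 53.6 TPM in control, 11.6, 10.9 and 11.6 TPM in high calcium and 19.0, 17.5 and 17.5 TPM in TGFb3. MCM7 was at 133, 153 and 160 TPM, 38.6, 39.5 and 38.5 TPM, and 63.5, 59.3 and 61.3 TPM. In both genes the order was control, TGFb3, high calcium, with no overlap. MCM10, CDC45 and GINS2 act in loading and running that helicase. GINS2 was at 28.9, 30.6 and 30 TPM in control, 4.28, 4.3 and 4.04 TPM in high calcium and 13.4, 13.9 and 13.9 TPM in TGFb3, and its high calcium difference of -2.57 was the deepest of all 126 lower genes. PCNA, the sliding clamp of DNA polymerase, was at 691 ± 25.2, 179 ± 4.66 and 291 ± 5.85 TPM. RFC3, a subunit of the clamp loader, was at 71.6 ± 3.27, 26.1 ± 0.863 and 29.8 ± 1.23 TPM. Of the polymerase alpha-primase complex, POLA1 was at 68.2 ± 1.47, 24.6 ± 0.884 and 31.2 ± 1.06 TPM, and PRIM1 at 67.9 ± 1.2, 23.9 ± 1.45 and 28.0 ± 7.03 TPM.

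The enzymes that supply nucleotides followed the same order. TYMS, thymidylate synthase, was at 249, 250 and 254 TPM in control, 55.2, 55.8 and 51.3 TPM in high calcium and 122, 114 and 126 TPM in TGFb3. RRM2, the regulated subunit of ribonucleotide reductase, was at 338 ± 18.2, 84.8 ± 2.38 and 154 ± 6.43 TPM. EXO1, an exonuclease of mismatch repair, was at 59.4 ± 1.6, 11.8 ± 0.371 and 23.4 ± 0.247 TPM. CDC25A, the phosphatase that activates cyclin-dependent kinase 2, was at 33.3 ± 2.25, 11.4 ± 0.859 and 14.3 ± 0.366 TPM. In the direct comparison 14 of the 16 were called higher in TGFb3 than in high calcium, PRIM1 and CDC45 being the exceptions, and 0 were called higher in high calcium. Over all tested genes these directions were called in 24.1% and 35.5%. On the deposited scale, where 75.7% of the calls over all tested genes were higher in high calcium, 11 of 16 were called higher in TGFb3. There MCM6 and RFC3 changed sign without being called. CDC7, the kinase that starts replication origins, was not on the list but was among the members closest between the treatments, at 44.2 ± 3.32, 18.0 ± 1.22 and 18.1 ± 2.94 TPM. In bulk RNA, fewer cells in a given phase and less RNA per cell cannot be told apart.

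**Figure D3:**
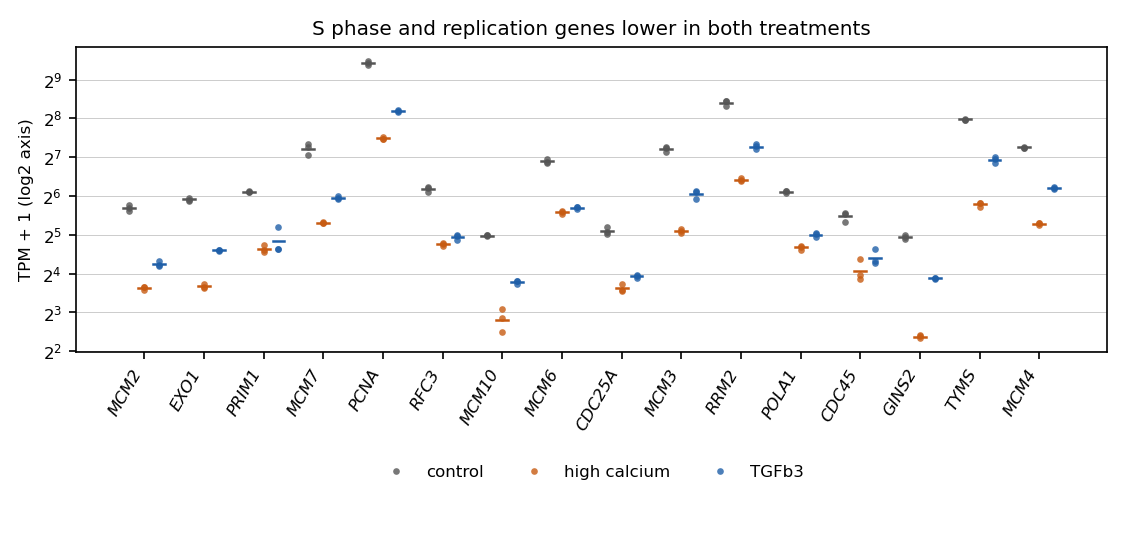
Level of the 16 replication genes of the set in each sample, as TPM + 1 on a log2 axis; points are samples (3 per group) and bars are the group means on the log scale. All 6 treated points lie below the 3 control points of each gene, and for GINS2 the high calcium samples, at 4.04 to 4.30 TPM, lie far below the TGFb3 samples, at 13.4 to 13.9 TPM.

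Promoters of the lower genes were searched for the E2F motifs TTTCGCGC and TTTGGCGC on both strands, because E2F factors drive S phase genes. At least 1 match was found in 12 of 88 lower promoters (13.6%), in 0 of 191 higher promoters and in 322 of all 27305 promoters (1.18%) or 2.09% of those of tested genes. With promoters for under 80% of the members, these counts too are descriptions. The CCAAT motif, which is common to many proliferation genes, was in 47.7% of the lower, 31.9% of the higher and 35.7% of all promoters. The 250 bases before the start are shown for 3 lower genes with a match, with the motif or its reverse complement in capitals.

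MCM6, chr2:135876444-135876693, minus strand: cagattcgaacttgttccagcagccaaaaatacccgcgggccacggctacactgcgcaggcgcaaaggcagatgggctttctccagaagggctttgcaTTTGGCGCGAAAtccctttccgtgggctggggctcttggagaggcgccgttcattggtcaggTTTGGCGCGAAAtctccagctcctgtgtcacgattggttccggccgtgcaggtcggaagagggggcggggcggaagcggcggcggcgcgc
POLA1, chrX:24693668-24693917, plus strand: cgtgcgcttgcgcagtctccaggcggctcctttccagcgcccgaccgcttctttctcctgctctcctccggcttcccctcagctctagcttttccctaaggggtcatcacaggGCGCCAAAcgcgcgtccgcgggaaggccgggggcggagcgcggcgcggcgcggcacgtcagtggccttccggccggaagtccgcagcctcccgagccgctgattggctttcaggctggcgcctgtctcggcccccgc
CDC25A, chr3:48188418-48188667, minus strand: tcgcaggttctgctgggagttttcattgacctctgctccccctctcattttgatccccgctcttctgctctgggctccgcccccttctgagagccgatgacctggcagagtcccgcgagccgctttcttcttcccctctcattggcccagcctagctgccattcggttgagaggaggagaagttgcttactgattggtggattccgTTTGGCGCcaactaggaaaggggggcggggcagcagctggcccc

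The MCM6 window held 4 matches in 2 overlapping pairs, each pair with 1 motif on either strand, and the POLA1 and CDC25A windows held 1 match each. No match in a window says only that these letters are not there.

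Mitotic genes were also lower, and 3 of them passed the size limit. Of the 28 tested genes of the mitosis list, AURKB, BUB1B and KIF20A met the rule, and the other 25 were all called lower in high calcium and in TGFb3, beside 26.4% and 32.5% of all tested genes. The list's median difference was -1.29 and -0.80. KIF20A, a kinesin of cytokinesis, was at 209, 216 and 196 TPM in control, 65.1, 61.9 and 61.9 TPM in high calcium and 96.3, 101 and 107 TPM in TGFb3. AURKB, the aurora kinase of the chromosomal passenger complex, was at 82.5 ± 9.57, 22.0 ± 1.5 and 40.3 ± 1.96 TPM, and the checkpoint kinase BUB1B at 111 ± 3.54, 37.7 ± 0.724 and 54.5 ± 4.74 TPM. The TGFb3 differences of these 3 genes lay between -1.02 and -1.01, and each left the set under the median ratio and quantile scalings. AURKB also left it without the third control or the second TGFb3 sample, and BUB1B and KIF20A without the second control or the first TGFb3 sample. HMGB2, a chromatin protein of proliferating cells, was at 831 ± 61.9, 348 ± 26.9 and 314 ± 17.8 TPM. MYB, a transcription factor of dividing progenitor cells, was at 12.7 ± 0.851, 2.2 ± 0.416 and 4.05 ± 0.23 TPM.

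Nucleolar and chaperone genes were among the most abundant lower genes and were named after their values were seen. NCL, nucleolin, was at 1405, 1374 and 1355 TPM in control, 656, 639 and 667 TPM in high calcium and 578, 599.9 and 607 TPM in TGFb3. NOP56, a core protein of box C/D small nucleolar particles, was at 525 ± 27.6, 212 ± 15.9 and 210 ± 32.8 TPM. TCOF1, which acts in ribosomal RNA transcription, was at 156 ± 6.07, 52.0 ± 0.335 and 66.4 ± 1.75 TPM. NCL left the set on the deposited scale, and its host transcript overlaps SNORD20, a lower entry of the set whose reads cannot be told apart from it. HSP90AA1, the inducible cytosolic HSP90, was at 2854, 2884 and 2683 TPM in control, 837, 862 and 900.5 TPM in high calcium and 1144, 1187 and 1157 TPM in TGFb3. HSPE1, the small subunit of the mitochondrial chaperonin, was at 825 ± 65.5, 326 ± 7.45 and 284 ± 7.54 TPM. The treated samples of NCL, HSP90AA1 and HSPE1 were all below their control samples.

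Further lower genes were named by the size of their differences or from the lists. HYPK led by the rule, at 150, 162 and 149 TPM in control, 35.5, 29.7 and 27.7 TPM in high calcium and 24.6, 12.2 and 32.2 TPM in TGFb3, but it overlaps SERF2 on the same strand, so its reads are uncertain. METTL7A was at 58.0 ± 4.86, 12.7 ± 1.73 and 13.8 ± 1.21 TPM. SULT1E1, the oestrogen sulfotransferase, was at 120 ± 9.7, 19.6 ± 1.21 and 33.3 ± 6.54 TPM. EHF, an epithelial ETS factor, was at 89.5, 79.8 and 79.4 TPM in control, 25.6, 29.3 and 27.6 TPM in high calcium and 5.09, 3.83 and 5.55 TPM in TGFb3. Its 3 groups were far apart, and its TGFb3 difference of -3.86 was the deepest of the lower genes in that treatment. ABCC2, an efflux pump, was at 21.4 ± 3.35, 6.04 ± 0.671 and 3.75 ± 0.152 TPM, and SLC1A3, a glutamate transporter, at 30.4 ± 0.604, 9.19 ± 0.694 and 4.18 ± 0.345 TPM. IRS1, the docking protein of the insulin and IGF receptors, was at 3.17 ± 0.289, 0.506 ± 0.0593 and 0.672 ± 0.0894 TPM. EVI2B was at 13.1 ± 2.1, 2.98 ± 0.262 and 2.6 ± 0.45 TPM, FAM81A at 19.8 ± 3.07, 5.68 ± 1.16 and 5.06 ± 0.902 TPM, and KLHL13 at 13.4 ± 1.37, 3.82 ± 0.687 and 3.68 ± 0.524 TPM.

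The direct comparison of high calcium with TGFb3 was not used by the rule, although the rule puts both groups on the same side of control. Of the 405 members that passed a mean of 1 TPM, 213 were called (52.6%), beside 59.6% of all 14373 tested genes. Of these, 78 were higher in high calcium and 135 in TGFb3, where 35.5% and 24.1% of all tested genes were called. On the deposited scale, which keeps mitochondrial RNA in the total, the split was 119 against 99. Among the higher genes 62 were called higher in high calcium and 83 in TGFb3, and among the lower genes 16 and 52. A difference of at least 1 between the treatments was seen in 54 members of 407, 46 higher and 8 lower. That share was close to the share of all tested genes, 1924 of 14373. A difference within 0.25 was seen in 102 higher and 55 lower members, with no count over all tested genes to set beside it. For all tested genes, 59.5% of the calls were higher in high calcium on the main scale, 75.7% as deposited, 49.9% under median ratio and 50.6% under quantile scaling.

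Counts by list in that comparison are descriptions. Of 7 matrix members 5 were called higher in TGFb3 and 0 in high calcium, and of 4 protease members 4 and 0. Of the 5 higher cornified envelope members 1 was called higher in TGFb3 and 3 in high calcium, and of 5 NF-kappaB members 0 and 2. Over all tested genes, 24.1% were called higher in TGFb3 and 35.5% in high calcium. On the deposited scale 4 matrix and 3 protease members were called higher in TGFb3. The cornified envelope counts there were 0 in TGFb3 and 4 in high calcium. On that scale 75.7% of all calls were higher in high calcium. No test compared the lists with each other. The members with gene names farthest towards TGFb3 were SCG5 (-3.45 ± 0.11), PLAU (-3.33 ± 0.07), ITGB6 (-2.68 ± 0.05) and NEDD9 (-2.47 ± 0.11). SCG5, a neuroendocrine chaperone, was at 1.91 ± 0.438, 5.1 ± 0.326 and 65.6 ± 2.41 TPM, and it left the set without the second control sample. NEDD9, a scaffold of focal adhesions, was at 0.545 ± 0.115, 6.18 ± 0.381 and 39.0 ± 4.01 TPM. The members farthest towards high calcium were SPRR1A, EHF, CCL20 and SERPINB7, the last a serpin of keratinocytes at 5.41 ± 0.985, 45.4 ± 2.45 and 14.6 ± 1.39 TPM. EHF is there because it was lower in TGFb3 than in high calcium. Members with nearly equal levels were TMEM263, at 76.6 ± 0.63 TPM in high calcium and 77.1 ± 3.36 TPM in TGFb3 from 30.7 ± 1.12 TPM in control, and DDAH2, at 30.6 ± 2.9 and 30.8 ± 2.24 TPM from 8.03 ± 1.27 TPM. On the deposited scale TMEM263 was called higher in high calcium (0.18, adjusted p = 0.0045). A difference that missed the threshold does not show that the treatments acted alike on a gene.

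**Figure D4:**
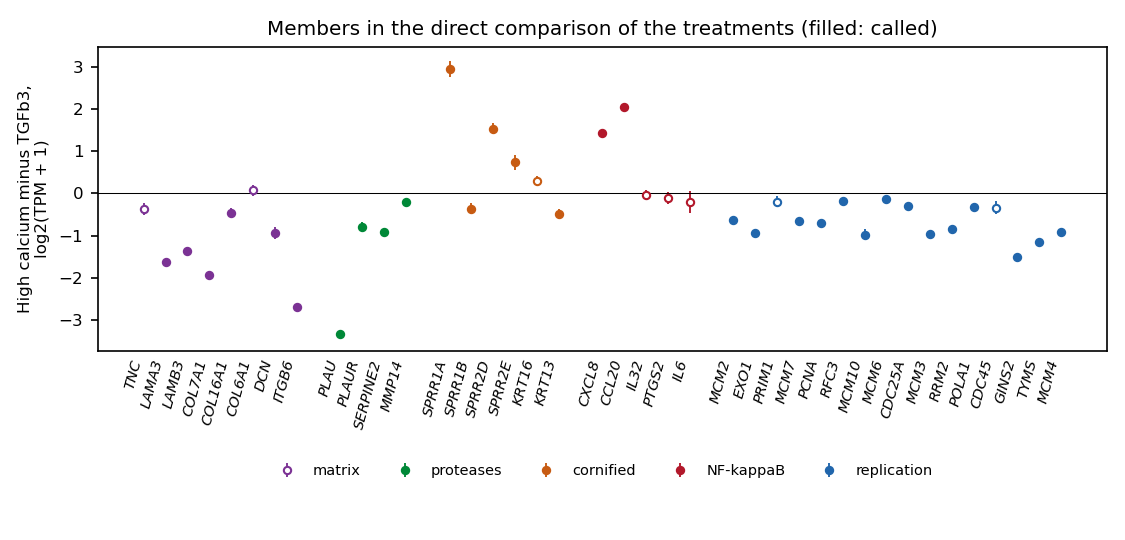
Difference between high calcium and TGFb3 in log2(TPM + 1) for 39 members in 5 groups of genes (x axis), with the standard error of the limma fit as a bar; filled points were called and open points were not. Matrix and protease genes lie at or below 0 except COL6A1, SPRR1A reaches 2.94, PLAU lies at -3.33, and the 16 replication genes all lie below 0, although MCM6 and RFC3 lie above 0 on the deposited scale.

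The immune markers CD68 and CSF1R were in the set. CD68, a lysosomal protein used to mark macrophages, was at 3.91, 1.73 and 2.3 TPM in control, 42.1, 15.6 and 26.3 TPM in high calcium and 14.2, 17.7 and 10.9 TPM in TGFb3. CSF1R, the receptor for colony stimulating factor 1, was at 0.907 ± 0.228, 4.6 ± 0.319 and 10.4 ± 1.19 TPM. The defining leukocyte marker PTPRC was at 0 in all 9 samples, as was CD3E. The remaining tested immune marker, CD14, was not in the set, at 25.9 ± 2.44 TPM in control, 40.6 ± 3.68 TPM in high calcium and 3.30 ± 0.815 TPM in TGFb3, and was called lower in TGFb3.

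The rule was applied again to 6 samples, 2 of each group, and the resulting genes were read in the 3 samples left out. With replicate 1, 2 or 3 of each group left out, 301, 303 and 345 higher genes were chosen, and 290, 283 and 323 of them had the same direction in both treatments in the left-out samples. A difference of at least 1 in both was seen in 222, 211 and 207 of them, which is 73.8%, 69.6% and 60%. For the lower genes 135, 152 and 151 were chosen, 121, 125 and 141 kept the direction, and 77, 85 and 75 reached 1 in size in both, which is 57.0%, 55.9% and 49.7%. Each left-out value is a single sample per group, and both treatments are set against the same left-out control, which by itself favours agreement in direction. No value without a treatment effect is available for these counts, so they are descriptions.

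Values at the edge of the rule lay close together. RNPEPL1, at 1.00 and 1.07 in high calcium and TGFb3, PGM3, at 1.03 and 1.00, and LINC00313 were just inside among the higher genes. MAP3K14-AS1, at 1.39 and 0.998, GATS, at 0.99 and 1.01, and TTC9 were just outside. Among the lower genes CHAC2, FIGNL1 and ELAVL2 were just inside and DPH1, AHSA1 and TWNK just outside, with smaller differences that all lay within 0.005 of -1. LSM6 was a lower gene with a wide control spread, at 82.4, 53.1 and 42.8 TPM, and it left the set without the first control sample. IFI27 left it without the first or second control, the second high calcium or the first TGFb3 sample. SPRR1B did so without the second control or the third high calcium sample, and PI3 without the first control, the third control or the third TGFb3 sample. Under median ratio and quantile scaling INHBA, MCM4, TYMS and ORAI2 fell short of the size limit, and under quantile scaling BMP2, CTGF, COL6A1, COL16A1, IL6, IFI27 and SCG5 did.

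The members were spread over the genome, with 38 stretches in which at least 2 members lay within 100 kb of each other. In the SPRR stretch all 4 were higher, whereas the keratin stretch from 41500981 to 41615899 of chromosome 17 held KRT13 lower and KRT14 and KRT16 higher. Pairs such as IGFL2 with IGFL2-AS1 and NCL with SNORD20 overlap or adjoin, so their entries may share reads.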

How the data were processed

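RNA of 9 MCF10A samples, 3 per group, was isolated by Trizol and sequenced from both ends (101 bp each), per the labels' protocols. The submitters' processing notes name HISAT2 and the genome build hg38; no source used here gives the quantifier, annotation release or strandedness. The deposited table holds TPM for 58288 entries, each column summing to 1000000. TPM does not preserve depth, which is therefore unknown for every sample, and counting intervals cannot be given. The sample columns were matched by label.

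From these values, the 1932 entries sharing 253 symbols were summed, 37 mitochondrial symbols were left out and the remaining 56572 were rescaled to 1000000. Of all symbols, 56316 were found in GENCODE 29, the source of the coordinates. The difference of group means of log2(TPM + 1) chose the members. The test was limma 3.58.1 in R 4.3.3 on the 14373 symbols whose mean reached 1 TPM, with all 9 samples, 3 groups and a variance trend. Two-sided p-values were adjusted by Benjamini-Hochberg over all tested symbols, calls were made under 0.05, and every adjusted p given is of this kind. Errors are SD of TPM (n = 3) or SE of a log2 difference. The method was tested on simulated data. Python 3.11.15, pandas 2.3.3 and matplotlib 3.10.9 made tables and figures.

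The members and the gene lists were chosen with earlier results of these data known. Named genes are the 12 higher and 12 lower members with the largest smaller difference and at least 10 TPM in a group, up to 4 members per list, those at the edge of the rule, and the 4 farthest apart in each direction and the 4 closest between the treatments. Further members of the lists, and the genes marked so where they appear, were chosen after their values were seen. Alternatives were the deposited scale, median ratio and quantile scaling, pseudocounts of 0.25 and 4, means of at least 1 or 5 TPM, leaving out each sample, a replicate block, and only the groups compared.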

Additional observations from a re-analysis of the deposited data

How the results depend on the processing

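The number of shared genes depended most on the value added before taking logarithms. With 0.25 in place of 1 it was 528 higher and 214 lower genes, and with 4 it was 124 and 70. With the values as deposited it was 304 and 94, with median ratio scaling 280 and 110, with quantile scaling 231 and 151, and with a mean of at least 5 TPM 196 and 96. Leaving out each sample in turn gave 285 to 312 higher and 118 to 146 lower genes. Of the main set, 221 of 281 higher and 84 of 126 lower genes were in the set under every one of these 9 omissions, and 220 and 77 under all 3 other scalings.

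On the deposited scale, 119 members were called higher in high calcium than in TGFb3 rather than 78. Members that changed sign there included NDRG1 and TMEM263, to 0.037 (adjusted p = 0.58) and 0.18 (adjusted p = 0.0045). On the main scale NDRG1 and TMEM263 stood at -0.16 (adjusted p = 0.044) and -0.01 (adjusted p = 0.89). CDKN1A, CDC7, MCM6 and RFC3 were among the others that changed sign, without being called on the deposited scale. The cause of these changes is the total used for scaling, which includes mitochondrial RNA.

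Samples with the same replicate number are not known to be paired. Same-numbered samples of different groups had correlations of -0.07 to 0.003 in their deviations from the group means. Differently numbered samples had -0.04 to 0.08. With 3 samples per group, these values cannot settle whether the samples were paired. With a replicate block, 8260 genes were called between high calcium and TGFb3, beside 8568 without it, and 207 members, beside 213. The block gave 8156 calls for high calcium against control and 8146 for TGFb3 against control. TPM gives no depth, so weakly expressed members, such as the 74 higher genes under 1 TPM in control, have an unknown counting error.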
